A study of Mus musculus with 9 samples.

Results

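The genes described here are the histone genes of the 4 clusters that in this array's annotation carry the names Hist1, Hist2, Hist3 and Hist4. Members were all non-control probes of the array whose gene name starts with 1 of these cluster names followed by the histone type, which gave 52 probes for 45 gene names out of 55681 probes and 34650 gene names. They comprised 6 probes for the linker histone H1, 13 for H2A, 11 for H2B, 8 for H3 and 14 for H4. By cluster, 39 were annotated to Hist1 on chromosome 13, 10 to Hist2 on chromosome 3, 2 to Hist3 on chromosome 11 and 1 to Hist4 on chromosome 6. Of these, 49 probes gave a signal well above background on 1 or more arrays and entered the tests. The probes for Hist2h2ab, the pseudogene Hist3h2bb-ps and 1 of the probes for Hist2h2bb were not well above background on any array.

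RNA came from primary microglia of newborn fms-EGFP mice, whose macrophage lineage cells carry a green fluorescent reporter, kept in culture with GM-CSF at 5 ng/ml. The groups were control microglia (0 h, no apoptotic cells) and microglia given apoptotic cells of the human neuroblastoma SH-SY5Y for 3 h, named Ph3h, or for 24 h, named Ph24h, and each group had 3 arrays. The SH-SY5Y cells had been labeled with the membrane dye CM-DiI and made apoptotic with staurosporine at 3 μM for 4 h. No microglia kept unfed for 3 h or 24 h are among these groups, so the time in culture and the feeding cannot be told apart, and both feeding times were compared with the same control arrays.

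Replication-dependent histone genes are small, mostly without introns, and are transcribed in S phase, when new DNA has to be packed. H2A, H2B, H3 and H4 form the nucleosome core and H1 binds the DNA that links nucleosomes. The mRNA of these genes usually ends in a conserved stem-loop in place of a poly(A) tail, and the stem-loop is bound by SLBP, which directs its processing, translation and decay. In differentiated cells some of the same genes also give polyadenylated mRNA. The labeling of these arrays started from oligo-dT primers, which pair with poly(A), so how much of a stem-loop mRNA was labeled is unknown.

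The array probes are 60 bases long, and 4 of the member probes held the whole stem-loop. They are shown because they are read from the 3′ end that sets these mRNAs apart. Capitals mark the stem-loop, and up to 6 bases are given on each side, 5′ to 3′ as on the array.
Hist1h3a: accaaaGGCTCTTTTCAGAGCCaca
Hist1h3i: acaaaaGGCTCTTTTCAGAGCCccctc
Hist1h4m: actaaaGGCCCTTTTCAGGGCCatccaa
Hist2h2bb: ccaaaaGGCTCTTTTCAGAGCCacttta
In mm9, these probes lie at chr13:23853756-23853815 on the minus strand (Hist1h3a), chr13:21874784-21874843 on the minus strand (Hist1h3i), chr13:21903960-21904019 on the plus strand (Hist1h4m) and chr3:96074056-96074115 on the plus strand (Hist2h2bb). The letters CTTTTCAG at the core of the stem-loop occurred in 95 of the 55681 probes of the array.

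A pair of H4 probes carries the clearest contrast among the members. The probes for Hist1h4k and Hist1h4c cover the same stretch of the H4 coding sequence and are identical at 52 of 60 bases. Those for Hist1h4d and Hist1h4j overlap the same stretch. Capitals mark the bases that differ from the Hist1h4k probe where they overlap.
Hist1h4k: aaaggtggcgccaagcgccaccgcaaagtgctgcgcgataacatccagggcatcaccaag
Hist1h4c: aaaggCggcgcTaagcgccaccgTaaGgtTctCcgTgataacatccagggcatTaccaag
Hist1h4d: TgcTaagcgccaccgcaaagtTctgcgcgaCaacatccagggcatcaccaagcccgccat
Hist1h4j: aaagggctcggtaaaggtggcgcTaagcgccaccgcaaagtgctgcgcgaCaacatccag
Counted from 1 at the 5′ end of the Hist1h4k probe, the Hist1h4c probe differs by T6C, C12T, C24T, A27G, G30T, G33C, C36T and C54T. In mm9 the probes lie at chr13:21842279-21842338 on the minus strand for Hist1h4k, chr13:23790223-23790282 on the minus strand for Hist1h4c, chr13:23673515-23673574 on the plus strand for Hist1h4d and chr13:21826989-21827048 on the plus strand for Hist1h4j.

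Many H2A probes read a near-identical coding end. They are shown because their values cannot be assigned to single genes with certainty. Capitals mark the bases that differ from the Hist2h2aa2 probe.
Hist2h2aa2: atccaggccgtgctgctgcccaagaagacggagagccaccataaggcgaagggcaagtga
Hist1h2af: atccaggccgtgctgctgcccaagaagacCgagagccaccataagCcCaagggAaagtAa
Hist1h2ah: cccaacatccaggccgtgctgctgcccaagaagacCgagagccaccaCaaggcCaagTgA
Hist1h2ak: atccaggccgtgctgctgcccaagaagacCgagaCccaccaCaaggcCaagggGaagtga
Hist1h2an: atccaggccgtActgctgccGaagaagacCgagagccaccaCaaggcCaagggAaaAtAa
Over the bases they share, these 5 probes were 86.7% to 94.4% identical. In all, 18 of the 52 member probes, 8 of them for H2A, shared a run of at least 20 bases with another member probe, so paralogs can bind to each other's probes, and the values of these 18 probes are uncertain as to the gene.

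Levels are given as the log2 of the processed intensity over the 75th percentile of the same array, so a level of 0 equals that percentile. The percentile itself was 356 to 473 intensity units on the control arrays, 185 to 211 on the Ph3h arrays and 156 to 161 on the Ph24h arrays, so each rise and fall below is relative to a percentile that was lower after feeding. Over all 34385 probes tested, the median log2 change was 0.06 at 3 h and -0.01 at 24 h. If arrays were scaled on their median instead, the median of all probes moved to -0.19 at 3 h, -0.51 at 24 h and -0.22 between the feeding times. Changes of under about that size depend on the scaling.

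At 3 h, 13 of the 49 histone probes exceeded control and 20 fell below it, in limma's test with the Benjamini-Hochberg adjustment over all probes at a threshold of 0.05. In the background of all probes, 26.3% were called higher and 24.7% lower. At 24 h, 17 histone probes were higher and 20 lower, against 28.2% and 31.8% of all probes. Between 3 h and 24 h, 18 rose and 12 fell, against 18.8% and 22.8% of all probes. With arrays scaled on the median, the counts were 10 higher and 25 lower at 3 h, 7 and 31 at 24 h, and 8 and 19 between the feeding times. Among all called probes, the share called higher then went from 51.5% to 33.2% at 3 h, from 47.0% to 22.8% at 24 h and from 45.1% to 22.0% between the feeding times. The median log2 change of the 49 probes was -0.12 at 3 h, -0.18 at 24 h and 0.05 between the feeding times. In the regression on time, 44 of the 49 passed the F test, 43 of them with an R2 above 0.7 and 24 with an R2 above 0.9, against 64.2%, 62.7% and 38.2% of all probes.

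In either direction, 33 of the 49 were called at 3 h, 37 at 24 h and 30 between the feeding times, against 51.0%, 60.1% and 41.6% of all probes. The arrays of the groups did not overlap for 39, 43 and 34 of the 49, against 64.4%, 69.0% and 54.9% of all probes. Changes of at least 2-fold were called for 6 higher and 10 lower probes at 3 h (10.8% and 7.64% of all probes), 6 higher and 8 lower at 24 h (15.5% and 8.59%) and 7 higher and 2 lower between the feeding times (6.16% and 6.23%). So the share of histone probes that were lower by this size at 3 h was above that of all probes, and no test was made of the difference.

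The histone types did not move as a block. For comparison, 26.3% of all probes were called higher and 24.7% lower at 3 h, and 28.2% and 31.8% at 24 h. Of the 6 H1 probes, 4 were lower at 3 h and 1 was higher, with a median log2 change of -1.10. Of the 12 H2A probes tested, 2 rose and 4 fell at 3 h, and 7 rose and 4 fell at 24 h (medians 0.04 and 0.31). Of the 9 H2B probes tested, 1 rose and 5 fell at 3 h, and 5 fell but none rose at 24 h (medians -0.53 and -0.33). Of the 8 H3 probes, 4 rose and 1 fell at 3 h, and 3 rose and 2 fell at 24 h (medians 0.80 and 0.13). Of the 14 H4 probes, 5 rose and 6 fell at 3 h, and 6 rose and 5 fell at 24 h (medians -0.08 and 0.13). By call, 11 probes were higher at both times, 14 were lower at both, and none was higher at 1 time and lower at the other. Both comparisons subtract the same control arrays, which favors equal signs. The share of all probes with such calls was not counted. With median scaling at 24 h, 1 H2A probe was higher and 5 lower (median -0.20), 3 H3 probes were higher and 5 lower (-0.38), and 2 H4 probes were higher and 8 lower (-0.38), so the balance of these types at 24 h depends on the scaling. With that scaling, 5069 of all 34385 probes were higher and 17162 lower at 24 h. A difference between the types was not tested.

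**Figure D1:**
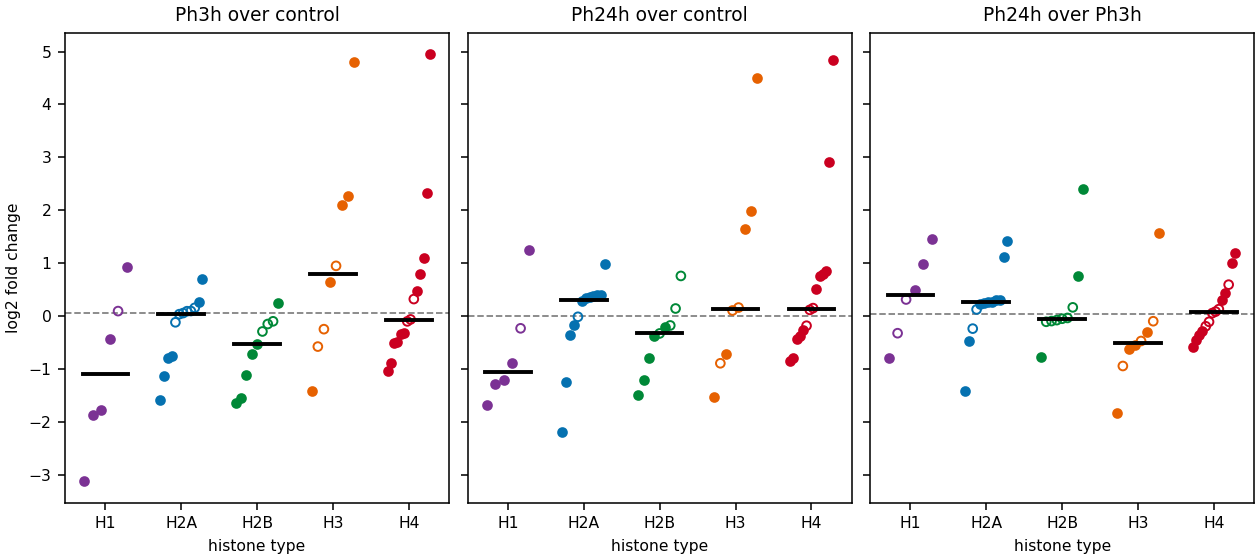
Log2 fold changes of the 49 histone cluster probes tested, by histone type (horizontal axis), for Ph3h over control, Ph24h over control and Ph24h over Ph3h. Filled points passed limma's test at an adjusted p below 0.05 and open points did not, black bars are the medians of each type and the dashed line is the median of all 34385 probes. Values of probes below background in a group, such as Hist1h1d after feeding, are plotted as fitted. The H1 points lie mostly below the dashed line at 3 h, and single H3 and H4 probes stand at the top.

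The largest rises were in single H3 and H4 genes. Hist1h4c, which encodes H4, stood at -1.30, -1.27 and -1.10 on the control arrays, at 4.02, 3.44 and 3.73 on the Ph3h arrays and at 3.77, 3.86 and 3.24 on the Ph24h arrays. All 6 arrays of fed microglia were above all 3 control arrays. The log2 change was 4.96 ± 0.20 (SE, n = 3 and 3) at 3 h, or 31.1-fold (limma, adjusted p = 2.04e-06), and 4.85 ± 0.20 at 24 h, or 28.8-fold (limma, adjusted p = 1.65e-06). The unscaled intensity rose as well, from 166 to 191 in control to 2012 to 3439 at 3 h.

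The Hist1h4k probe that covers the same stretch of H4 gave other values. It was at 1.92, 1.94 and 2.00 in control, 1.95, 1.78 and 1.94 at 3 h and 1.69, 1.76 and 1.63 at 24 h. The 3 h arrays overlapped the control arrays, and the log2 change was -0.06 at 3 h, which did not pass the test, and -0.26 at 24 h, which passed it (limma, adjusted p = 0.015). The overlapping probe for Hist1h4d changed by -0.10 at 3 h (not called) and -0.38 at 24 h, and that for Hist1h4j by -0.34 at 3 h and -0.80 at 24 h. Of these 4 probes, the Hist1h4c probe was called higher and the others were not. Whether other RNA matches its 8 differing bases was not tested.

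The fed cells were human, and their RNA may bind to mouse probes. The paper reports low homology to human transcripts for most probes, degraded RNA in apoptotic SH-SY5Y cells and no active transcription in them. It proposes that the arrays detected microglial changes only. In the paper, real-time qPCR of selected genes also largely matched the arrays. VGF was among the genes with the largest expression there, and Vgf is on the list followed next. Here, a list of 20 genes of SH-SY5Y cells was followed, of which 17 were measured. Of these, 13 rose and 1 fell at 3 h, against 27.9% and 26.0% of all genes. At 24 h, 14 rose and none fell, against 29.9% and 33.2%. On the control arrays, 8 of the 17 were never well above background. The summed level of the list, on a linear scale relative to the 75th percentile, was 5.06 to 5.90 in control, 1494 to 1628 at 3 h and 2264 to 2609 at 24 h. Scg2, which encodes a secretory granule protein, was not well above background in control and was at least 1679-fold higher at 3 h and at least 1403-fold higher at 24 h. RNA of the fed cells cannot be told apart from RNA of microglia by these values. The part of human histone RNA in the changes above and below was not tested. In such mixed RNA, fewer cells of a type and less RNA per cell cannot be told apart either.

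Hist2h3b, which encodes H3, rose by a similar amount on its own probe. Its level was 1.08, 1.06 and 1.21 in control, 6.03, 5.94 and 5.77 at 3 h and 5.65, 5.72 and 5.48 at 24 h. Fed and control arrays were far apart, with a log2 change of 4.80 ± 0.10 at 3 h, or 27.8-fold (limma, adjusted p = 9.65e-08), and 4.50 ± 0.10 at 24 h. The difference between the feeding times, -0.30, did not pass the test with quantile normalization (-0.17), normexp (-0.09), the authors' value table (-0.18) or the replicate number as a block (limma, adjusted p = 0.072). Its probe, at chr3:96072881-96072940 on the plus strand of mm9, reads H3 coding sequence and is the most GC-rich of the members, at 70.0%, as its letters show.
Hist2h3b: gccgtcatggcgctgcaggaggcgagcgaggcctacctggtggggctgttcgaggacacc

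A smaller rise was seen for the H3 genes Hist1h3d and Hist1h3f. The level of Hist1h3d was 6.00, 6.02 and 6.01 in control, 8.17, 8.12 and 8.01 at 3 h and 8.03, 8.06 and 7.91 at 24 h. This is a log2 change of 2.09 ± 0.07 at 3 h (4.26-fold) and 1.99 ± 0.07 at 24 h, and the difference between the feeding times did not pass the test. Hist1h3f was at -1.88, -2.00 and -1.93 in control, 0.41, 0.32 and 0.27 at 3 h and -0.22, -0.22 and -0.42 at 24 h. It rose by 2.27 ± 0.08 at 3 h (4.83-fold) and then fell by 0.62 ± 0.08 between 3 h and 24 h (limma, adjusted p = 0.000638), with no overlap between any of the groups.

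Hist1h3c, also H3, rose at 3 h by less. It was at 2.45, 2.47 and 2.50 in control, 3.20, 3.02 and 3.14 at 3 h and 2.61, 2.57 and 2.55 at 24 h. The change was 0.65 at 3 h and 0.10 at 24 h, the latter not called. Its unscaled intensity at 3 h was below that in control, so the rise is relative to the rest of the array. From the start codon on, the probes for Hist1h3c and Hist1h3f read the same 35 bases and differ at the next, so each may bind RNA of the other gene.
Hist1h3c: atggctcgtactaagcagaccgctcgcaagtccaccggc
Hist1h3f: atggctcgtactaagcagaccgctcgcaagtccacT
The last base of the Hist1h3f probe, in capitals, is where it differs from the Hist1h3c probe.

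Hist2h4, an H4 gene of the Hist2 cluster, has 2 probes that both rose by unequal amounts. The probe A_55_P1973349 was at 4.88, 4.83 and 4.96 in control, 5.76, 5.59 and 5.71 at 3 h and 5.91, 5.89 and 5.43 at 24 h, a log2 change of 0.80 ± 0.13 and 0.85 ± 0.13. With median scaling, the change at 24 h was 0.34 and did not pass the test (limma, adjusted p = 0.0955). Its unscaled intensity, however, was not above the range of control at either time (11044 to 13908 in control, 8908 to 11462 at 3 h and 6931 to 9481 at 24 h), so this rise is one relative to the rest of the array. The probe A_55_P1974967 was well above background on 1 of the 3 control arrays, and went from -4.73, -5.89 and -4.39 to -2.64, -2.48 and -2.93 at 3 h and -1.92, -1.91 and -2.44 at 24 h. Its log2 change was 2.32 ± 0.38 at 3 h and 2.91 ± 0.38 at 24 h.

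**Figure D2:**
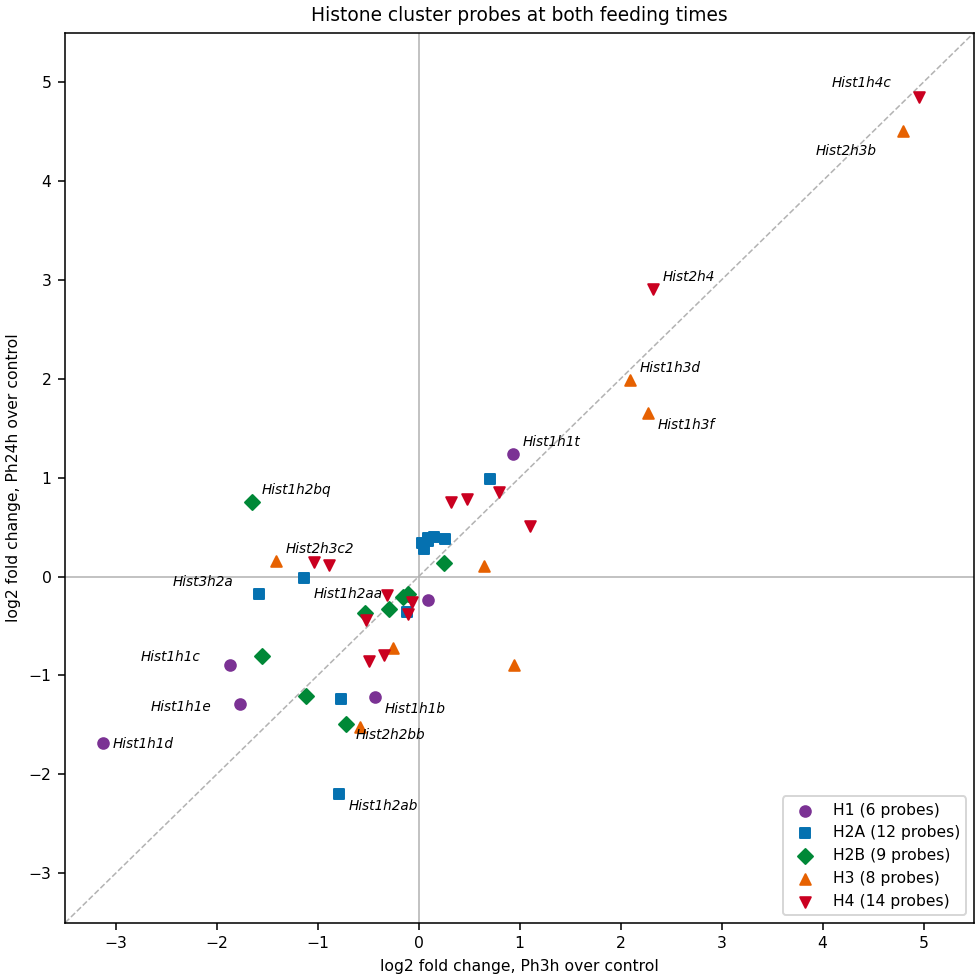
Log2 fold change of each of the 49 histone cluster probes at 3 h (horizontal axis) against that at 24 h (vertical axis), both over the same 3 control arrays, with color and symbol by histone type. Points on the dashed line changed equally at both times. Hist1h4c and Hist2h3b lie alone at the upper right, with log2 changes of 4.50 to 4.96, and the points above the line at the left are probes that were lower at 3 h and nearer to control at 24 h.

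Other members were low at 3 h and rose again by 24 h. Of the 20 probes called lower at 3 h, 10 were called higher at 24 h than at 3 h, 6 were called lower again and 4 did not pass this test. Of all probes, 8.99% were both lower at 3 h and then higher at 24 h than at 3 h, against these 10 of 49. Of these 10, 5 were still called lower than control at 24 h and 5 were not.

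Of these 10 probes, 3 were for linker histones. Hist1h1c, an H1 gene that is also expressed in non-dividing cells, was at 5.65, 5.74 and 5.56 in control, 3.88, 3.79 and 3.67 at 3 h and 4.78, 4.79 and 4.71 at 24 h. All 3 groups were apart, with a fall of 1.87 ± 0.08 on the log2 scale at 3 h (3.65-fold lower, limma, adjusted p = 2.25e-06) and a rise of 0.98 ± 0.08 from 3 h to 24 h. Hist1h1e went from 2.47, 2.49 and 2.54 to 0.99, 0.67 and 0.53 at 3 h and 1.20, 1.31 and 1.13 at 24 h, a change of -1.77 ± 0.12 and -1.29 ± 0.12. The rise of Hist1h1e between the feeding times, 0.49 ± 0.12, did not pass the test with median scaling (0.22, adjusted p = 0.19) or on slide 1 alone. Hist1h1d was well above background on all control arrays, at -2.70, -2.71 and -2.81, and on no array of fed microglia, so its level was at least 2.76-fold lower at 3 h (limma, adjusted p = 9.07e-05) and at least 2.41-fold lower at 24 h. Its value between the feeding times gives no fold.

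The other H1 genes went their own ways. Hist1h1b kept falling, from -0.81, -0.82 and -0.79 in control to -1.25, -1.31 and -1.14 at 3 h and -2.20, -1.99 and -1.88 at 24 h, a log2 change of -0.43 ± 0.09 and -1.22 ± 0.09. Hist1h1t, the H1 of the testis, was low throughout and rose from -4.05, -4.11 and -3.32 to -2.68, -2.98 and -3.03 at 3 h and -2.80, -2.36 and -2.60 at 24 h. With normexp its change at 3 h was 0.16 and did not pass the test (limma, adjusted p = 0.104), and its unscaled intensity did not rise (23.8 to 35.7 in control, 23.4 to 33.0 at 3 h and 22.6 to 30.5 at 24 h). Hist1h1a was called at neither time.

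Hist3h2a, the H2A gene of the Hist3 cluster, gave the tightest fall and return. It was at 4.47, 4.49 and 4.53 in control, 2.89, 2.97 and 2.87 at 3 h and 4.27, 4.35 and 4.34 at 24 h. The log2 change was -1.58 ± 0.06 at 3 h (limma, adjusted p = 1.13e-06) and 1.41 ± 0.06 between 3 h and 24 h (limma, adjusted p = 3.19e-06). The remaining difference from control at 24 h, -0.18 ± 0.06, passed the test with all 9 arrays but not with quantile normalization (-0.09). It also did not pass when any 1 of 5 arrays, the 3 control arrays and Ph24h replicates 1 and 3, was left out. With median scaling the difference was larger, at -0.68, so how far the level returned depends on the scaling.

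Hist2h3c2, an H3 gene, went from 2.37, 2.44 and 2.59 to 1.15, 1.02 and 0.99 at 3 h and 2.63, 2.67 and 2.58 at 24 h. The 24 h arrays overlapped the control arrays (0.16, not called), while the change at 3 h was -1.41 ± 0.08. With median scaling, its change at 24 h was -0.35 (limma, adjusted p = 0.00588). Hist1h2aa, an H2A gene of the testis, followed the same course, at -0.22, -0.24 and 0.10 in control, -1.23, -1.25 and -1.27 at 3 h and -0.15, -0.04 and -0.22 at 24 h. With median scaling it was still lower than control at 24 h (-0.52, limma, adjusted p = 0.00245).

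**Figure D3:**
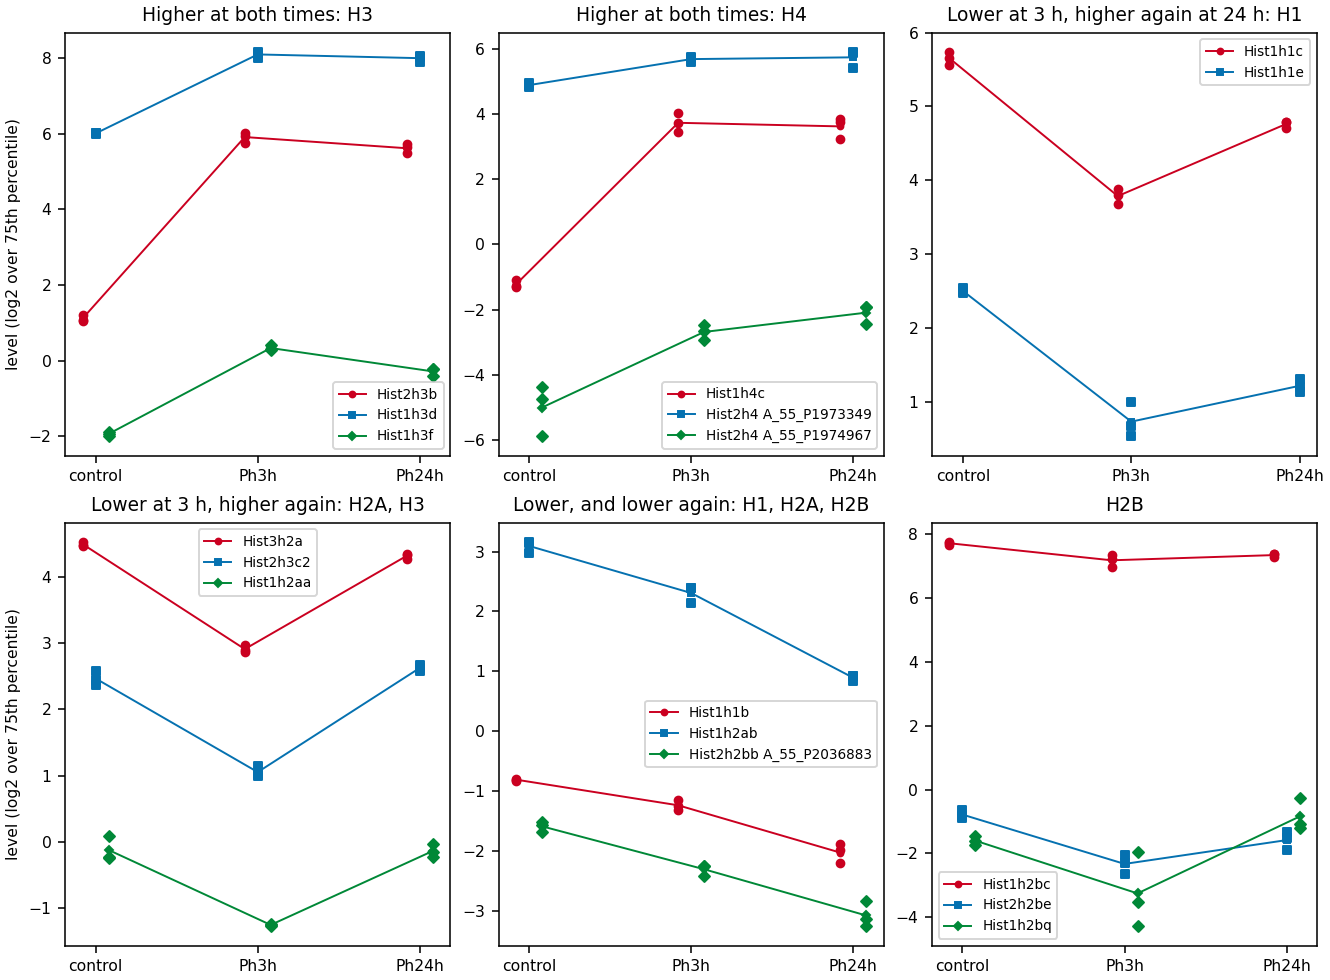
Levels of 17 histone cluster probes on each array, as log2 over the 75th percentile of the array (vertical axis), in control, Ph3h and Ph24h microglia. Points are single arrays (3 per group), lines join the group means, and vertical scales differ between panels. Hist2h3b and Hist1h4c step up from control to 3 h, Hist1h1c, Hist3h2a and Hist2h3c2 dip at 3 h, and Hist1h2ab steps down at both times.

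Among H2B genes, Hist2h2be, known to give polyadenylated mRNA, was at -0.89, -0.82 and -0.65 in control, -2.66, -2.04 and -2.30 at 3 h and -1.91, -1.33 and -1.52 at 24 h. Its log2 change was -1.55 ± 0.20 at 3 h and -0.80 ± 0.20 at 24 h. Hist1h2bq scattered most, at -1.45, -1.74 and -1.62 in control, -4.29, -3.51 and -1.97 at 3 h and -1.21, -1.07 and -0.26 at 24 h. Its fall at 3 h (-1.65 ± 0.56, limma, adjusted p = 0.0405) no longer passed the test when any 1 of 7 arrays, all but Ph3h replicate 3 and Ph24h replicate 3, was left out, and was -1.14 without Ph3h replicate 1 (limma, adjusted p = 0.104). Hist1h2bc fell from 7.66, 7.72 and 7.76 to 6.98, 7.23 and 7.34 at 3 h and 7.29, 7.38 and 7.37 at 24 h, and Hist1h2bp from -1.87, -1.78 and -2.11 to -3.03, -3.03 and -3.05 and then to -2.97, -3.03 and -3.40. For these last 2 genes the change between 3 h and 24 h did not pass the test.

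The genes known to give polyadenylated mRNA in differentiated cells were represented by 6 probes, for Hist1h1c, Hist1h2bc, Hist2h2be, Hist2h2aa2, Hist4h4 and Hist3h2a. At 3 h, 5 were called lower and none higher, with a median log2 change of -1.04, against 24.7% lower and 26.3% higher of all probes, and at 24 h 5 were lower and 1, Hist2h2aa2, was higher (median -0.40), against 31.8% and 28.2%. Between the feeding times 4 rose and none fell, against 18.8% and 22.8% of all probes, and with median scaling 2 rose. Median scaling gave 3274 rising probes out of all 34385 in this comparison. Hist4h4 was at 2.38, 2.41 and 2.52 in control, 2.06, 1.85 and 1.84 at 3 h and 2.00, 2.10 and 1.90 at 24 h. The 5 lower calls at 3 h were also made with quantile normalization, with median scaling and in the authors' value table, and 6 were made with normexp.

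Base composition moved with part of these changes. Of the members, 9 probes had a GC content of 40% or less, a limit chosen after the values were seen, and all 8 of these that were tested were lower at 3 h (Hist1h1c, Hist1h1d, Hist1h2ab, Hist1h2bc, Hist1h2bp, Hist1h2bq, Hist2h3c2 and Hist3h2a), with a median log2 change of -1.50. Of all 12986 array probes with such a GC content, 35.0% were lower and 20.2% higher at 3 h, with a median of -0.15, against 0.18 for the other probes. At 24 h, 6 of the 8 were lower and none higher than control, against 43.5% and 19.3% of such array probes, and between the feeding times 5 rose and 1 fell, against 19.3% and 27.4%. The 41 member probes of higher GC content had 13 higher and 12 lower calls at 3 h and a median of 0.03. Its part in the result was not tested.

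A further set of members fell at 3 h and fell further by 24 h. Hist1h2ab, an H2A gene, was at 2.98, 3.16 and 3.14 in control, 2.40, 2.39 and 2.14 at 3 h and 0.92, 0.92 and 0.84 at 24 h. It gave the deepest fall of the members at 24 h among those measured in all groups, with a log2 change of -0.79 ± 0.09 at 3 h and -2.20 ± 0.09 at 24 h (4.60-fold lower, limma, adjusted p = 1.57e-06). Hist2h2bb, an H2B gene whose probe holds the stem-loop, went from -1.68, -1.51 and -1.57 to -2.25, -2.42 and -2.24 at 3 h and -3.13, -2.84 and -3.26 at 24 h, a change of -0.72 ± 0.12 and -1.49 ± 0.12. Hist1h4j (-0.34 and -0.80) and Hist1h4d (-0.50 and -0.85 on the probe A_55_P2106569) fell in the same order. Between the feeding times, the further fall of this Hist1h4d probe (-0.36) did not pass the test with normexp (-0.09, limma, adjusted p = 0.341), in the authors' value table (-0.21) or on slide 1 alone. The fall of Hist1h4j at 3 h did not pass the test when any 1 of 8 arrays, all but Ph3h replicate 1, was left out.

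The 4 probes with the stem-loop did not share a course. Hist2h2bb fell at both times, while Hist1h4m, an H4 gene, rose from -2.03, -2.15 and -1.77 to -0.81, -1.05 and -0.78 at 3 h and stood at -1.48, -1.60 and -1.34 at 24 h. Its rise of 1.10 ± 0.13 at 3 h passed the test (limma, adjusted p = 0.00028), and that of 0.51 ± 0.13 at 24 h did so too, but not with quantile normalization (0.28) or median scaling. The unscaled intensity of Hist1h4m overlapped control at 3 h and was below control at 24 h. Both rises are thus relative to the rest of the array. Hist1h3i was well above background on all control arrays, on 2 Ph3h arrays and on no Ph24h array, and was at least 1.63-fold lower at 24 h than in control (limma, adjusted p = 0.0334), a call that was lost without Control replicate 2 (adjusted p = 0.0995), Control replicate 3 or any 1 of the Ph24h arrays. Hist1h3a was well above background on 2 control arrays and 1 Ph3h array and on no Ph24h array, and was at least 1.44-fold lower at 24 h than at 3 h. Hist1h3g was well above background on all control arrays and on no Ph24h array, and its lower call at 24 h (limma, adjusted p = 0.025) gives no bound on the fold and was lost without Control replicate 2 or 3 or Ph24h replicate 1 or 3. Between 3 h and 24 h, 3 of the 4 stem-loop probes were called lower and none higher, against 22.8% and 18.8% of all probes. Only 2 of the 4 were well above background on all 9 arrays, and the 4 were picked out after their values were seen.

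The H2A probes shown above for the coding end moved little. The levels of Hist1h2ah were 7.15, 7.22 and 7.23 in control, 7.44, 7.39 and 7.23 at 3 h and 7.65, 7.68 and 7.50 at 24 h, and those of Hist2h2aa2 were 7.19, 7.39 and 7.34, then 7.41, 7.39 and 7.39, then 7.64, 7.77 and 7.57. The 24 h arrays were above the control arrays for both, by 0.40 ± 0.08 and 0.36 ± 0.08 on the log2 scale. These rises are smaller than the shift of all probes under median scaling at that time, and with median scaling they were -0.10 and -0.15 and did not pass the test. Of the 8 H2A probes that shared a run of 20 bases, 6 were called higher and 2 lower at 24 h, against 28.2% and 31.8% of all probes. The 2 lower ones were Hist1h2ag (-0.36) and Hist1h2ao (-1.24). With median scaling 2 of the 8 fell and none rose, while 17162 of all 34385 probes fell and 5069 rose. As paralogs can bind to each other's probes, these calls may not be separate observations.

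The probes annotated to Hist1h2an and Hist1h2ao parted although their positions overlap. RefSeq in GRCm38.p6 has the promoter of Hist1h2an on the minus strand and that of Hist1h2ao on the plus strand. Both probes are annotated to the plus strand, so the gene behind the Hist1h2an probe is uncertain. In mm9 the probes lie at chr13:21902669-21902728 and chr13:21902695-21902754, and the last 34 bases of the first are the first 34 of the second.
shared by Hist1h2an and Hist1h2ao: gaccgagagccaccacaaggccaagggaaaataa
Hist1h2an was at 5.54, 5.60 and 5.66 in control, 5.93, 5.84 and 5.80 at 3 h and 6.02, 6.04 and 5.89 at 24 h, a change of 0.26 and 0.38, of which neither passed the test with median scaling (0.01 and -0.13). Hist1h2ao was at 5.22, 5.35 and 5.25 in control, 4.54, 4.54 and 4.45 at 3 h and 4.07, 4.10 and 3.93 at 24 h, a log2 change of -0.76 ± 0.07 and -1.24 ± 0.07 (limma, adjusted p = 7.19e-06 at 24 h). A pair of probes for Hist1h2ak gave 0.71 and 0.06 at 3 h and 0.98 and 0.27 at 24 h, the first for the probe A_52_P498208, which shares no such run with another member.

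Hist1h4i, an H4 gene, has 3 probes that disagreed in sign at 3 h. The probe A_55_P2158697 lies farthest upstream, at chr13:22133139-22133198 on the minus strand of mm9, and rose from 2.22, 2.27 and 2.20 in control to 2.84, 2.62 and 2.66 at 3 h and 3.09, 3.10 and 2.86 at 24 h. The probe A_55_P2174198, 460 bases downstream, fell from 2.97, 3.18 and 3.25 to 2.26, 2.26 and 2.23 at 3 h and stood at 3.34, 3.29 and 3.13 at 24 h. The probe A_51_P505521, 548 bases downstream of the first, fell from 4.89, 4.94 and 4.94 to 3.86, 4.01 and 3.79 and stood at 5.01, 5.12 and 5.08 at 24 h. The log2 changes at 3 h were 0.48 ± 0.09 for the upstream probe and -0.89 ± 0.09 and -1.04 ± 0.07 for the downstream ones, all called. With the probes of the gene averaged, the change at 3 h was -0.48 (limma, adjusted p = 0.00062). With median scaling, the rise of the upstream probe was 0.23 at 3 h and did not pass the test, and both downstream probes were lower than control at 24 h (-0.39 and -0.36).

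**Figure D4:**
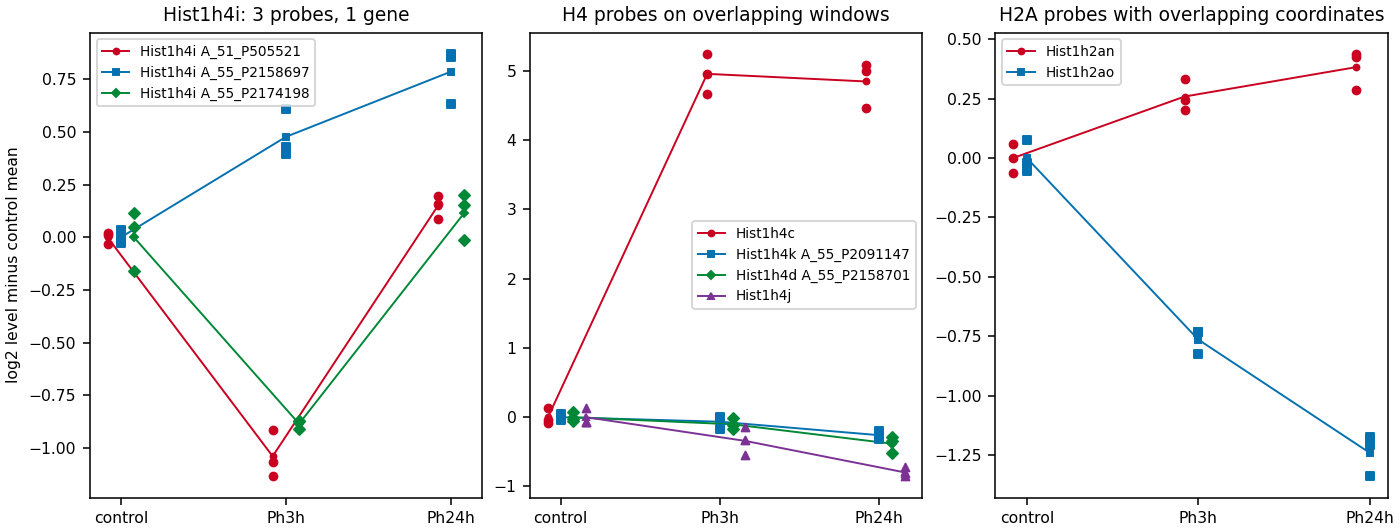
Levels of single probes on each array minus the probe's mean in control (vertical axis, log2), in control, Ph3h and Ph24h microglia, for the 3 probes of Hist1h4i, for 4 H4 probes on overlapping stretches of coding sequence and for 2 H2A probes with overlapping coordinates. Points are arrays (3 per group), lines join group means and vertical scales differ. The upstream probe of Hist1h4i rises while both downstream probes dip at 3 h, Hist1h4c rises by 4.96 while Hist1h4k changes by -0.06, and Hist1h2an and Hist1h2ao part.

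Other members changed by small to moderate amounts. Hist1h2ba, an H2B of the testis, was 0.25 higher at 3 h, which did not pass the test with quantile normalization (0.16) or median scaling (0.01), nor without Control replicate 1 (0.21, limma, adjusted p = 0.0513). Hist1h2bm was 0.20 lower at 24 h on the log2 scale (-0.20), a call that was lost without Control replicate 2 or 3 or Ph24h replicate 1 or 3. Hist1h4h rose by 0.76 at 24 h, a call that was lost with median scaling. Hist1h2bb and Hist1h2be, of H2B, were called in none of the comparisons.

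The promoters of these genes are known for a few short elements. RefSeq promoters of the GRCm38.p6 build, from 250 bases before to 50 after the start of transcription, were found for 39 of the 45 gene names, and all 45 matched a RefSeq gene by accession or synonym. The letters CCAAT, on either strand, occurred in all 6 promoters of H1, all 12 of H2A, all 7 of H2B and all 6 of H3, but in 2 of 8 of H4, and in 37.4% of all 32851 promoters. The letters ATTTGCAT, the octamer bound by Oct-1, occurred in 5 of 12 promoters of H2A, 5 of 7 of H2B and in none of the other types, and in 1.74% of all promoters. The letters TATAAA occurred in 21 of 39, and in 13.6% of all promoters. H2A and H2B genes often lie head to head, so that a pair can share 1 stretch of promoter.

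The 150 bases before the start are shown for Hist1h4c, which rose, for Hist1h4k, which did not, and for Hist1h2ab, which fell, with the 3 elements on either strand in capitals.
Hist1h4c: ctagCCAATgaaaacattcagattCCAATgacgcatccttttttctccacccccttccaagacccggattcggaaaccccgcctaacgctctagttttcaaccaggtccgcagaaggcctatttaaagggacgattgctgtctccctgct
Hist1h4k: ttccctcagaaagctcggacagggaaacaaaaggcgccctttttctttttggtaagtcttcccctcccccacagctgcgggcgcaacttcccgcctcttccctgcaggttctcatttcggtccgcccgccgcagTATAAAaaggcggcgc
Hist1h2ab: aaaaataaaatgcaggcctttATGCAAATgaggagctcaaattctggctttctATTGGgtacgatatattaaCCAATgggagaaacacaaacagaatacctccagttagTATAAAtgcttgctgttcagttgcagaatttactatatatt
In GRCm38.p6 they are chr13:23698459-23698608 on the minus strand, chr13:21750554-21750703 on the minus strand and chr13:23750938-23751087 on the plus strand. Hist1h4c was among the 2 H4 promoters with CCAAT, and the other, Hist1h4d, fell.

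Histone variants outside the clusters, which are made throughout the cell cycle from polyadenylated mRNA, were taken as a list of 17 genes with 14 measured, each by its brightest probe. At each time 8 rose and 2 fell, against 27.9% and 26.0% of all genes at 3 h and 29.9% and 33.2% at 24 h. The median log2 change was 0.36 at 3 h and 0.31 at 24 h, against 0.07 and 0.01 for all genes. With median scaling, 4 were higher and 5 lower at 24 h, with a median of -0.20. Of all 24102 genes, 3842 were then higher and 12261 lower, with a median of -0.50. H3f3a, which encodes H3.3, rose by 2.34 at 3 h and 3.01 at 24 h, and H1fx by 2.10 and 3.35. H1f0, the H1 of differentiated cells, fell by 2.70 at 3 h and 1.52 at 24 h.

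Genes of DNA replication and S phase, the phase in which cluster histones are made, were followed by 56 measured members, of which 22 rose and 10 fell at 3 h, while 8 rose and 41 fell at 24 h (medians 0.13 and -0.73). Among all genes, 27.9% were higher and 26.0% lower at 3 h, and 29.9% and 33.2% at 24 h. Between 3 h and 24 h, 41 of the 56 fell and 7 rose, against 24.0% and 20.4% of all genes. Mcm5, of the replicative helicase, was 1.53 higher at 3 h and -1.33 at 24 h on the log2 scale, Top2a, which untangles DNA, 0.90 and -2.46, and Ccna2, cyclin A2, 1.24 and -3.20, the last well above background on 1 Ph24h array. Mcm7 (1.72 and 1.29) and Tk1, thymidine kinase (2.22 and 1.74), were higher at both times. With median scaling, 13 were higher and 20 lower at 3 h, and 5 and 48 at 24 h. Of all 24102 genes, 4323 were then higher and 8515 lower at 3 h, and 3842 and 12261 at 24 h. Without median scaling, 14 of 43 cluster histone genes were higher and 18 lower at 24 h, each by its brightest probe. With median scaling, 7 of the 49 cluster histone probes were higher and 31 lower at 24 h. These last counts are by probe, while those of the S phase list are by gene.

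Of 24 measured genes of histone pre-mRNA 3′ processing, 8 rose and 9 fell at 3 h, while 5 rose and 13 fell at 24 h (medians -0.08 and -0.29). These counts stand beside shares of all genes of 27.9% higher and 26.0% lower at 3 h, and 29.9% and 33.2% at 24 h. With median scaling, 3 were higher and 12 lower at 3 h, and 1 and 20 at 24 h (medians -0.32 and -0.79). Of all 24102 genes, 4323 were then higher and 8515 lower at 3 h, and 3842 and 12261 at 24 h (medians -0.18 and -0.50). Cstf2t, a cleavage stimulation factor, fell by 1.36 at 3 h and 0.64 at 24 h, and Snrpb, a core protein of small nuclear ribonucleoproteins, rose by 1.07 and 1.16. Lsm11, a protein particular to the U7 particle that cuts histone pre-mRNA, rose by 0.80 and 0.79. Zfp473, which also takes part in this cut, was not well above background at 3 h and was at least 4.91-fold lower there. Cpsf2 fell by 0.65 and 0.81. Slbp itself had a log2 change of -0.13 at 3 h and -0.07 at 24 h, neither called, and was singled out after its values were seen.

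Of 14 measured genes of histone gene transcription, 2 rose and 6 fell at 3 h, while 2 rose and 7 fell at 24 h (medians -0.13 and -0.30). The shares of all genes were 27.9% higher and 26.0% lower at 3 h, and 29.9% and 33.2% at 24 h. With median scaling, 1 gene of this list was higher and 8 lower at 3 h, and 0 and 14 at 24 h. Of all 24102 genes, 4323 were then higher and 8515 lower at 3 h, and 3842 and 12261 at 24 h. Ncoa1, a nuclear receptor coactivator, rose by 0.67 and 0.24, Atm, a kinase of the DNA damage response, fell by 1.21 and 1.50, and Gon4l by 0.92 and 0.75. Ccne1, cyclin E1, did not pass the test at 3 h and fell by 0.75 at 24 h. Of 23 genes of histone mRNA decay, 4 rose and 9 fell at 3 h, while 3 rose and 14 fell at 24 h (medians -0.10 and -0.34). The same shares of all genes stand beside this list. With median scaling, 1 decay gene was higher and 12 lower at 3 h, and 0 and 20 at 24 h, beside the same median-scaled counts of all genes. Smg1, a kinase that acts on UPF1, rose by 0.89 and 0.62, while Tut1, a uridylyl transferase, fell by 0.76 and 0.24 and Exosc3, of the RNA exosome, by 0.64 and 0.45. Zcchc11 (-0.95), Lsm5 (-0.84) and Lsm7 (-0.74) were lower at 24 h.

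Of 30 measured histone chaperones, which carry histones to DNA, 10 rose and 6 fell at 3 h, while 4 rose and 18 fell at 24 h (medians 0.04 and -0.30). All genes had shares of 27.9% higher and 26.0% lower at 3 h, and 29.9% and 33.2% at 24 h. The balance of the chaperones at 3 h depends on the scaling. With median scaling, 4 were higher and 10 lower there (median -0.20), and 2 and 26 at 24 h (median -0.81). Of all 24102 genes, 4323 were then higher and 8515 lower at 3 h (median -0.18), and 3842 and 12261 at 24 h (median -0.50). Ssrp1, a subunit of FACT, rose by 1.18 and 1.49, and Anp32e, which removes H2A.Z, by 1.33 and 1.98. Asf1a, a chaperone of H3 and H4, fell by 1.22 at 3 h and was at least 2.13-fold lower at 24 h.

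Markers of the cells in culture moved as well. For comparison, 27.9% of all genes were higher and 26.0% lower at 3 h, and 29.9% and 33.2% at 24 h. Of 14 microglia markers, all measured, 5 rose and 5 fell at 3 h, while 2 rose and 10 fell at 24 h, with a summed level of 1561 to 1675 in control, 2039 to 2233 at 3 h and 1457 to 1509 at 24 h. P2ry12 was not well above background at 24 h and Cx3cr1 fell by 4.56 there, while Itgam rose by 1.39 and 1.23. Of 7 measured astrocyte markers, 1 was higher and 1 lower at 3 h and 1 and 2 at 24 h, with a summed level of 15.0 to 19.3 in control, 16.5 to 18.8 at 3 h and 17.3 to 17.6 at 24 h. Of 9 measured markers of the oligodendrocyte lineage, 3 rose and 3 fell at 3 h, while 3 rose and 4 fell at 24 h, with a summed level of 266 to 326, 420 to 478 and 211 to 245. The part of these cells in the changes of histone probes was not tested.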

How the data were processed

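Total RNA of 9 microglia cultures, 3 per group, was hybridised to 1-color Agilent mouse arrays lying on 2 slides, with replicates 1 and 2 on slide 1 and replicate 3 on slide 2. The authors scanned the arrays with Agilent Feature Extraction 10.7.3.1, and the deposited intensity of each spot was background-subtracted and detrended by that software, with no scaling between arrays. The deposited value table holds log2 values that the authors centered on each probe's mean, with a scaling that the sources used here do not give. The deposited spot flags (other than intensities) mark outliers, saturation and signal well above background.

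Spots flagged as outliers were left out, replicate spots of a probe were averaged, and the log2 intensity minus the 75th percentile of the array was taken as the level. Probes well above background on at least 1 array were kept (34385 of 55681, with 56 probes lost for want of an unflagged spot). Groups were compared with limma 3.58.1 in R 4.3.3 (lmFit and eBayes, all 3 groups in 1 model), with the Benjamini-Hochberg adjustment over all kept probes and a threshold of 0.05. The regression on time followed the study's approach of an F test with a limit on R2. Gene lists used the brightest probe of each gene. Where no array of a group showed a probe well above background, that group has only a bound, so its fold is given as at least the ratio of the brighter group's mean to the lowest signal well above background. The number of arrays limits the precision. Each SE and p-value rests on the spread within groups, pooled over all 9 arrays and moderated by limma over all probes. A group that scatters more is thus averaged with the others. The study describes the 3 arrays per group as independent experiments. The fit was also run on simulated arrays with known changes, drawn from the model itself. This checks the code and cannot check the model's assumptions on these data.

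The histone probes and the gene lists were chosen with earlier results of these data known. The probes named were, for each histone type, the brightest, those with the largest rise and fall in each comparison, and genes whose probes disagreed in sign. Probes named for a shared sequence, a stem-loop or a base composition were added to these after their values were seen. Alternatives were quantile normalization, median scaling, normexp with an offset of 50, the authors' value table, other filters on dim probes, 1 value per gene, slide or replicate as a block, slide 1 alone, a trended robust variance, fits of 2 groups and leaving out each array. RefSeq promoters came from GRCm38.p6 and probe positions are those of the array's annotation in mm9, and no position was carried from one to the other.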

Additional observations from a re-analysis of the deposited data

Results flagged for a closer look

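The histone probes below differed between 3 h and 24 h of feeding by limma's test of that difference, each given as the log2 level at 24 h minus that at 3 h. Groups of 3 arrays were not tested for outlying arrays. Among H1 probes, the difference was -0.79 for Hist1h1b, 0.98 for Hist1h1c and 0.49 for Hist1h1e. The value of 1.45 for Hist1h1d has no meaning as a fold, since no array of fed microglia showed this probe well above background.

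Among H2A probes, the difference was 1.12 for Hist1h2aa, -1.42 for Hist1h2ab, -0.48 for Hist1h2ao and 1.41 for Hist3h2a. It was 0.25 for Hist1h2ah, 0.27 for Hist1h2ak (A_52_P498208) and 0.26 for Hist2h2aa2, which are of the size of the shift that median scaling gives. Among H2B probes, it was 2.41 for Hist1h2bq, whose arrays scattered most at 3 h, -0.77 for Hist2h2bb and 0.75 for Hist2h2be.

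Among H3 probes, the difference was -0.62 for Hist1h3f, -0.30 for Hist2h3b and 1.57 for Hist2h3c2, and that of Hist2h3b did not pass the test with quantile normalization, normexp, the authors' value table or the replicate block. It was -1.84 for Hist1h3a, which was well above background on 1 Ph3h array and on no Ph24h array. Among H4 probes, it was -0.36 for Hist1h4d (A_55_P2106569), -0.45 for Hist1h4j and -0.59 for Hist1h4m, and that of Hist1h4d was -0.09 with normexp and did not pass the test. For the 3 probes of Hist1h4i it was 0.31 on A_55_P2158697, 1.00 on A_55_P2174198 and 1.19 on A_51_P505521.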

How the results depend on the processing

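With median scaling, the histone probes called at 24 h were 7 higher and 31 lower, and between the feeding times 8 rose and 19 fell. Without a filter on dim probes, 11 rose between the feeding times. On slide 1 alone, 11 were lower at 24 h, and 8 rose and 7 fell between the feeding times. Leaving out each array in turn gave 11 to 14 higher and 18 to 20 lower at 3 h, 17 to 17 higher and 15 to 20 lower at 24 h, and 10 to 16 rising and 10 to 14 falling between the feeding times, the 10 rising without Ph24h replicate 2. The other alternatives kept these counts within 1.5 times.

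Median scaling turned the sign at 24 h for Hist1h2ah (-0.10), Hist1h2an (-0.13), Hist2h2aa2 (-0.15), Hist1h2ba (-0.37), Hist2h3c2 (-0.35) and Hist1h4i (-0.36 on A_51_P505521 and -0.39 on A_55_P2174198), and between the feeding times for Hist1h2ah (-0.0137) and Hist2h2aa2 (-0.000184). Normexp turned Hist2h2aa2 at 3 h (-0.22), and the mean over probes turned the upstream Hist1h4i probe (-0.48), since the other probes of the gene fell. The cause of the other turns was not tested. No change of a histone probe that passed the test with all 9 arrays turned its sign when 1 array was left out, while changes that did not pass it could, as for Hist1h2aa at 24 h (-0.02 with all arrays and 0.09 without Control replicate 3). Leaving out 1 array did end calls between the feeding times: for Hist2h3b without any array but Ph3h replicate 3 and Ph24h replicate 2 (-0.23 to -0.31), for Hist2h2be without Ph3h replicate 1 or Ph24h replicate 2 or 3 (0.58 to 0.71), for Hist2h2aa2 without any Ph3h array or Ph24h replicate 1 or 2 (0.21 to 0.27), for Hist1h2ah without any array but Ph3h replicate 1 and Ph24h replicate 3 (0.19 to 0.27), for Hist1h2ak without Control replicate 2, Ph3h replicate 2 or Ph24h replicate 1 or 2 (0.22 to 0.27) and for the upstream Hist1h4i probe without Ph3h replicate 2 or 3 or Ph24h replicate 1 or 2 (0.27 to 0.29). At 3 h the call for Hist1h2an ended without Control replicate 1 or 2 or Ph3h replicate 1 (0.22 to 0.26).

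Other calls of the named probes that ended were, with median scaling, the rise of the upstream Hist1h4i probe at 24 h (0.28) and those between the feeding times of Hist1h2ak (0.0096), Hist2h2be (0.48) and that Hist1h4i probe (0.046). Hist2h2aa2 at 24 h was not called with quantile normalization (0.15) or in the authors' value table (0.14). The fall of Hist1h4j at 3 h was not called with normexp (-0.20), the slide or replicate block or the 2 groups alone. On slide 1 alone, calls ended at 24 h for Hist1h2bc (-0.36), Hist1h2bm (-0.16), Hist2h2be (-0.77), Hist1h3g (-1.26) and Hist1h3i (-0.74), and between the feeding times for Hist1h3a (-1.73), Hist1h4j (-0.42) and Hist2h2be (0.73).

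Replicate numbers did not pair the arrays (correlations of deviations from -0.05 to 0.04 between same-numbered arrays). With the replicate number as a block, 13 were higher and 19 lower at 3 h, 17 and 19 at 24 h, and 13 rose and 10 fell between the feeding times. Calls on probes near or below background, and the gene behind a probe that shares a run with a paralog, are limited by the signal and the probe design.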
